A study of Mus musculus with 6 samples.

Results

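The mitochondrial ribosomal protein genes were described here in sorted germinal centre B cells, 76 genes of the 19680 in the table. They were the protein-coding rows whose names start with Mrpl or Mrps followed by a digit. Of these, 49 encode proteins of the large subunit and 27 proteins of the small subunit, with Mrps18a and Mrps30 counted in the large subunit, where their proteins sit. In germinal centres B cells proliferate while they hypermutate their antibody genes and switch class. Here they were isolated from mouse spleen by flow cytometry as B220+ CD38- FAS+ cells. The mice were C57BL/6, aged 6 to 8 weeks, and their spleens were taken on day 14 after an intraperitoneal injection of 100 µg of NP-CGG, a hapten coupled to a carrier protein. The 3 WT libraries came from Senp1flox/flox mice, which carry loxP sites around Senp1 but no Cre. The 3 cKO libraries came from Senp1flox/flox mice that also carried Cγ1-Cre, a recombinase driven from the γ1 constant region locus and so active in B cells after activation. Both groups therefore share the floxed allele, the antigen and the sort, and the WT group does not control for the presence of Cre. Senp1, a protease that takes the small modifier SUMO off its targets, was measured at 915, 868 and 891 normalized counts in the WT libraries and at 373, 425 and 398 in the cKO libraries.

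Mitochondria carry their own ribosome, which translates only the few messenger RNAs of the mitochondrial genome, all of them for subunits of the respiratory chain and ATP synthase. Its RNAs come from the mitochondrial genome, whereas every one of its proteins is encoded in the nucleus, made in the cytosol and imported. Some of the proteins have counterparts in bacterial ribosomes and others are found only in mitochondria. Among the 76 genes, 30 of the large subunit and 16 of the small subunit encode proteins with a bacterial counterpart, and 19 and 11 encode proteins specific to mitochondria. Mrps36, counted here by its name, encodes a protein now placed with the 2-oxoglutarate dehydrogenase complex. Activated B cells expand their mitochondria as they begin to divide.

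The genes are spread over 17 chromosomes, and their promoters are known to hold sites for NRF1, for ETS factors such as GABPA and for YY1. RefSeq's table for GRCm38.p6 held 73 windows of 300 bases, from 250 before to 50 after a transcript start, for 67 of the 76 genes. The stretches printed here end at the base before the start of the transcript and were chosen to show an NRF1 motif with an ETS motif (Mrpl22), an ETS motif alone (Mrpl52), an E-box (Mrpl20), and a stretch without any of the 5 motifs searched (Mrps15, the gene with the largest difference between the groups). Capitals mark the motifs, and all 4 stretches are on the forward strand, 5′ to 3′, at chr11:58171414-58171660, chr14:54426659-54426908, chr4:155802628-155802877 and chr4:126046678-126046924 in that order.
Mrpl22: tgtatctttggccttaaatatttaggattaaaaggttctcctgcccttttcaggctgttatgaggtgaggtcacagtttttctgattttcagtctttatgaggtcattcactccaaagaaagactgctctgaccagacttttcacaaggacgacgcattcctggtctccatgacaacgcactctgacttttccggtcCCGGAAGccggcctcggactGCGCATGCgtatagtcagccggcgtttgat
Mrpl52: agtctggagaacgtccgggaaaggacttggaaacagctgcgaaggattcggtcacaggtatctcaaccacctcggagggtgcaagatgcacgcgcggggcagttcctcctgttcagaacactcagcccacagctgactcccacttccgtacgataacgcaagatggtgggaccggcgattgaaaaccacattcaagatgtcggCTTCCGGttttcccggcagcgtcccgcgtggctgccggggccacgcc
Mrpl20: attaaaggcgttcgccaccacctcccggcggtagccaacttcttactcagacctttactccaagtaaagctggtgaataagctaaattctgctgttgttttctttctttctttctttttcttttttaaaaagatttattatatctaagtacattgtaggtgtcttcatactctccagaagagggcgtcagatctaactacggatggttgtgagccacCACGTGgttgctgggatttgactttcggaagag
Mrps15: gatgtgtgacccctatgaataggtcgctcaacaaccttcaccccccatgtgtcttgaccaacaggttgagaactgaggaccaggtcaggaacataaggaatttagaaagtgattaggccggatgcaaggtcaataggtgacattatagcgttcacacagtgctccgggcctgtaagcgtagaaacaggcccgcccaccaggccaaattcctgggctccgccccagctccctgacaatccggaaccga

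In the Mrpl22 promoter the ETS motif starts 53 bases and the NRF1 motif 33 bases before the start of the RefSeq transcript. The ETS motif of Mrpl52 starts 47 bases before its start and stands on the reverse strand, so its letters read CTTCCGG. The E-box of Mrpl20 starts 33 bases before its start. Motifs were searched on both strands as exact letters, and overlapping matches were counted for each motif. The ETS core CCGGAAG was found in 24 of the 73 windows (32.9%), beside 8.86% of all 32851 windows of the same length. The YY1 core AAGATGGC was found in 12 (16.4%, beside 2.75%) and the NRF1 core GCGCATGC in 8 (11%, beside 2.71%). The E-box CACGTG, the core that MYC binds, was in 7 windows of 5 genes (9.59%, beside 7.15%), and CCAAT in 29 (39.7%, beside 37.4%). None of the 5 was in 20 windows. The median GC content was 58.3% over the windows of these genes and 52.7% over all windows, and the shares were not adjusted for it. A match describes the letters of the window and shows no binding.

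Many of the genes start beside another gene on the opposite strand. For 23 of the 76 (30.3%) the start lay within 1000 bases of the start of a protein-coding gene running the other way, beside 1623 of 14113 protein-coding genes of the table (11.5%). One such arrangement joins members of both subunits. The RefSeq starts of Mrps11 (chr7, 78783131, forward strand) and Mrpl46 (78783089, reverse strand) are 42 bases apart; their outer annotated ends overlap by more, so they are not among the 23. Exons of 31 members overlap those of another gene, for 26 of them on the opposite strand. Whether counting used the strand is not given, so reads of such neighbours may be mixed.

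All 76 genes were expressed and all passed the filter on low values, a mean of at least 1 normalized count (a read count divided by a size factor for the library). Mean levels over the 6 libraries ran from 41.8 normalized counts for Mrps6 to 553 for Mrpl18, with a median of 206, and 60 of the 76 lay within 2-fold of that median. Divided by the length of the principal transcript, the levels ran from 21.7 to 590 normalized counts per kilobase, a 27.1-fold range. The median was 139 per kilobase over the 76 genes, 161 for the large and 117 for the small subunit, 34.4 over all genes tested and 5329 over 83 cytosolic ribosomal protein genes. The range is one of messenger RNA, and protein was not measured.

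At the top of the scale per kilobase stood Mrps21, the counterpart of bacterial S21, at 590 ± 83.3 (SD over 6 libraries). Mrpl42 at 522 ± 48.8, Mrpl54 at 466 ± 83.2 and Mrpl18 at 454 ± 91.6 followed, all of the large subunit. Neighbours among these 4 differ by no more than the larger SD of the pair. Mrpl18 is the counterpart of the protein that holds 5S RNA in bacterial ribosomes, and Mrpl42 and Mrpl54 are specific to mitochondria. At the bottom stood Mrps25 at 21.7 ± 4.0, Mrpl17 at 27.9 ± 3.98, Mrpl47 at 28.1 ± 6.20 and Mrpl57 at 35.9 ± 11.8. Mrps25 lay below Mrpl17 by more than the SD of either, and the other neighbours differed by no more than the larger SD of the pair. These 4 have long annotated principal transcripts, of 6073, 7300, 3364 and 2877 bases against a median of 1302 for the members. Their levels per gene, without division by length, were 132, 203, 94.4 and 103 normalized counts, so their place at the bottom depends on the annotated length.

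**Figure D1:**
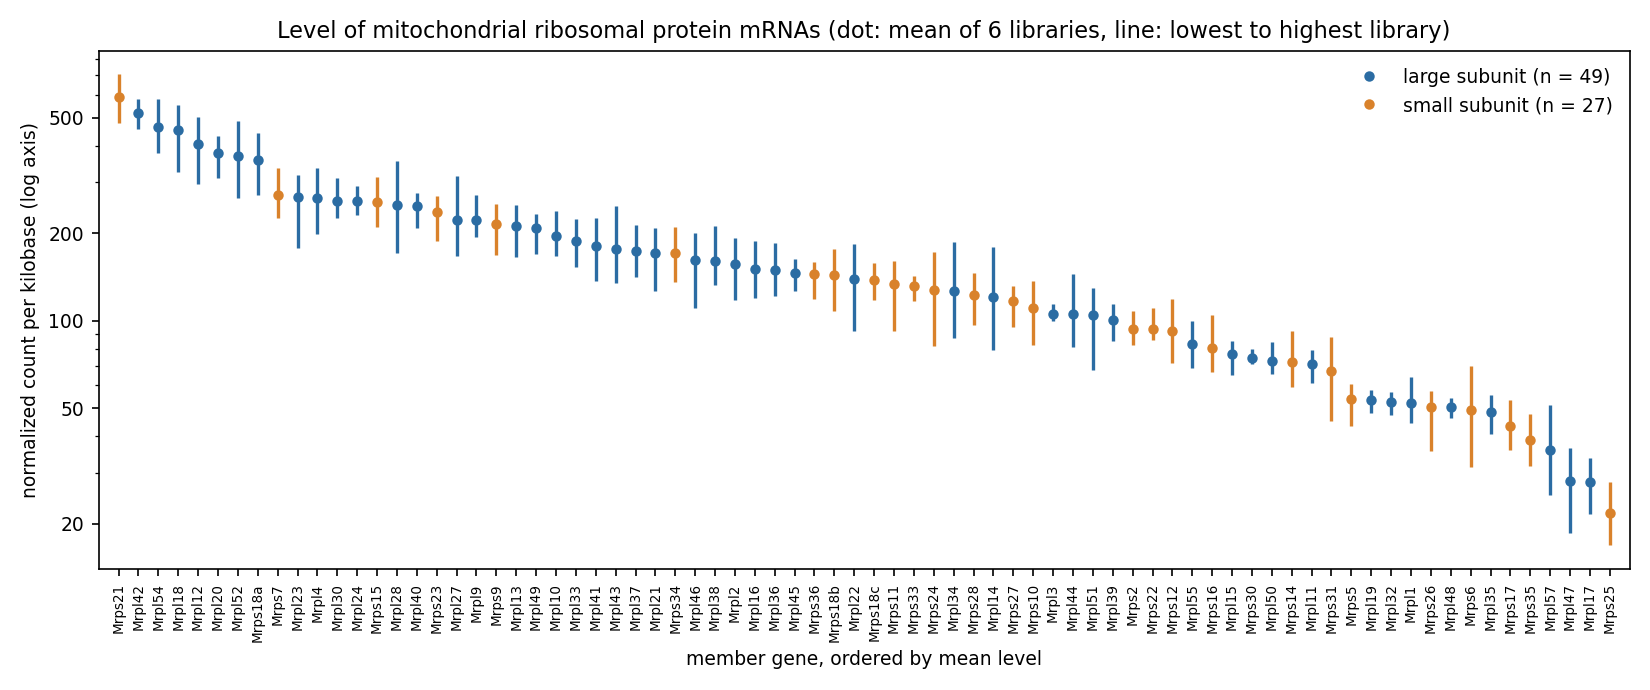
Level of each of the 76 mitochondrial ribosomal protein mRNAs in normalized counts per kilobase of principal transcript (log axis), with a dot for the mean of 6 libraries and a line from the lowest to the highest library. Levels fall from 590 for Mrps21 to 21.7 for Mrps25, and large and small subunit genes are mixed along the order.

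The comparison of cKO with WT asked whether transcripts change when Senp1 is deleted, and no mitochondrial ribosomal protein gene passed the test. limma with Benjamini-Hochberg adjustment called 0 of the 76 at an adjusted p under 0.05, and 0% of all 14678 genes tested. Adjusted p ran from 0.915 to 0.999 over the members. edgeR and DESeq2 on recovered reads also called 0 of the 76, beside 0% of 10786 genes and 0.147% of 13566 genes. At an unadjusted p under 0.05 limma placed 1 member higher in cKO (1.32%, beside 2.98% of all genes) and 0 lower (beside 2.17%). In either direction edgeR placed 1 member there (beside 5.66% of genes) and DESeq2 0 (beside 2.84%). In the authors' deposited table all 76 have an adjusted p and none is under 0.05, the smallest being 0.9996. Bulk RNA cannot tell fewer cells of a type from less RNA in each cell, and values are relative to the other genes of a library.

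The differences were small on both sides of 0. The log2 difference, cKO minus WT, had a median of 0.01 over the 76 members and over each subunit, and -0.002 over all genes tested. It ran from -0.23 for Mrps24 to 0.38 for Mrps15, was above 0 for 42 members and below 0 for 34, and stayed within 0.2 of 0 for 63. With library totals in place of the deposited size factors 24 of the 76 were above 0 and the median was -0.07, while the median of all genes moved to -0.08. The 46 genes with a bacterial counterpart had a median of 0.03 with 28 above 0, and the 30 specific to mitochondria a median of -0.01 with 14 above 0.

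What the data can bound is given by the 95% confidence intervals, which reached a median of 0.45 to either side of the estimate on the log2 scale (0.29 to 0.80). For 75 of the 76 members the interval lay inside -1 to 1, so a 2-fold difference in either direction is outside it. The exception was Mrps6, the member with the fewest reads, at -0.34 to 1.08. The lowest library held 21 to 247 recovered reads per member. The spread within a group was wider than counting error, with a median coefficient of variation of 16.7% where counting alone would give 7.45%.

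**Figure D2:**
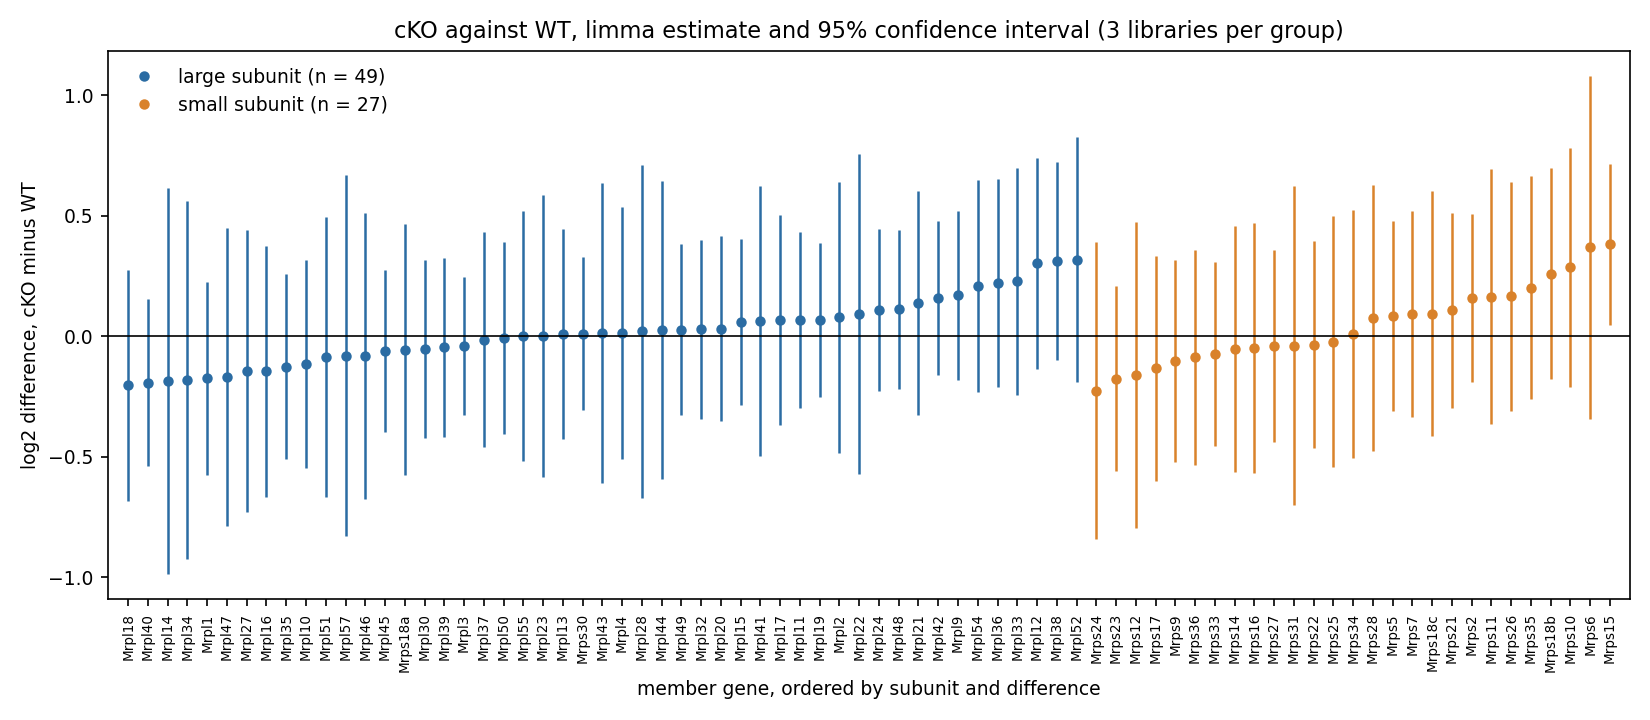
Log2 difference between cKO and WT for each member, limma estimate (dot) with 95% confidence interval (line), ordered within each subunit. The estimates run from -0.23 to 0.38, and only the interval of Mrps15 lies wholly on one side of 0.

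Mrps15 encodes the counterpart of S15, which in bacteria binds the small subunit RNA early in assembly, and its gene lies on chromosome 4 at 126046925 to 126055532 on the forward strand. It measured 224, 207 and 196 normalized counts in WT (209 ± 13.9, SD, n = 3) and 253, 271 and 294 in cKO (273 ± 20.7). Every cKO library lay above every WT library. The log2 difference was 0.38 (95% confidence interval 0.05 to 0.72), a 1.30-fold difference, with a limma adjusted p of 0.915. Within replicate 1 the log2 difference was 0.17, and over replicates 2 and 3 it was 0.49.

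The other member whose libraries did not overlap was Mrps2, the counterpart of S2, named here for that reason after its values were seen. It measured 194, 187 and 172 in WT (184 ± 11.5) and 197, 195 and 225 in cKO (206 ± 16.3). The nearest libraries of the groups are almost level, and only the cKO replicate 3 library stands clear. Members with every cKO library above every WT library were thus 2 of 76 (2.63%, beside 6.28% of all genes), and 0 of 76 had every cKO library below (beside 5.28%).

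Further large subunit members with small unadjusted p had overlapping libraries. Mrpl38, a protein of the central protuberance that has no bacterial counterpart, measured 191, 226 and 188 in WT (202 ± 20.9) and 210, 247 and 300 in cKO (252 ± 45.5), a log2 difference of 0.31 (-0.10 to 0.72). The cKO replicate 3 library is the high one, and WT replicate 2 lies above cKO replicate 1. Mrpl52, specific to mitochondria, measured 166, 111 and 137 in WT (138 ± 27.8) and 204, 137 and 176 in cKO (172 ± 33.8), a difference of 0.32 (-0.19 to 0.83). In both groups replicate 1 is the highest library and replicate 2 the lowest. Mrpl40, also specific to mitochondria, had the smallest p among members with a lower estimate in cKO. It measured 338, 349 and 331 in WT (339 ± 9.34) and 351, 268 and 278 in cKO (299 ± 45.7), a difference of -0.19 (-0.54 to 0.15). Its cKO replicate 1 library was the highest of the 6, so the groups overlap.

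Mrpl36, Mrpl33 and Mrpl9 have bacterial counterparts, L36, L33 and L9. Mrpl36 measured 143, 126 and 113 in WT and 171, 129 and 145 in cKO, a log2 difference of 0.22 (-0.21 to 0.65). Mrpl33 measured 95, 73.5 and 79.5 in WT and 107, 87.3 and 96.0 in cKO, a difference of 0.23 (-0.24 to 0.70). Mrpl9 measured 374, 313 and 326 in WT and 438, 366 and 339 in cKO, a difference of 0.17 (-0.18 to 0.52). In all 3 genes the highest library was cKO replicate 1, and the difference was smaller than the distance between replicate 1 and the lowest library of its own group. Mrpl42, specific to mitochondria, measured 352, 327 and 306 in WT (328 ± 23.3) and 388, 330 and 382 in cKO (367 ± 31.7), a difference of 0.16 (-0.16 to 0.48).

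In the small subunit Mrps10, the counterpart of S10 in the head of the subunit, measured 114, 105 and 83.7 in WT (101 ± 15.7) and 140, 131 and 100 in cKO (124 ± 20.9), a log2 difference of 0.29 (-0.21 to 0.78). Mrps6, the counterpart of S6, had the lowest level of all members. It measured 38.4, 44.7 and 26.5 in WT (36.5 ± 9.26) and 42.3, 39.9 and 59.2 in cKO (47.1 ± 10.6), a difference of 0.37 with the wide interval given before. Its exons overlap those of Slc5a3 on the same strand, and the 2 genes' reads may not be told apart there.

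**Figure D3:**
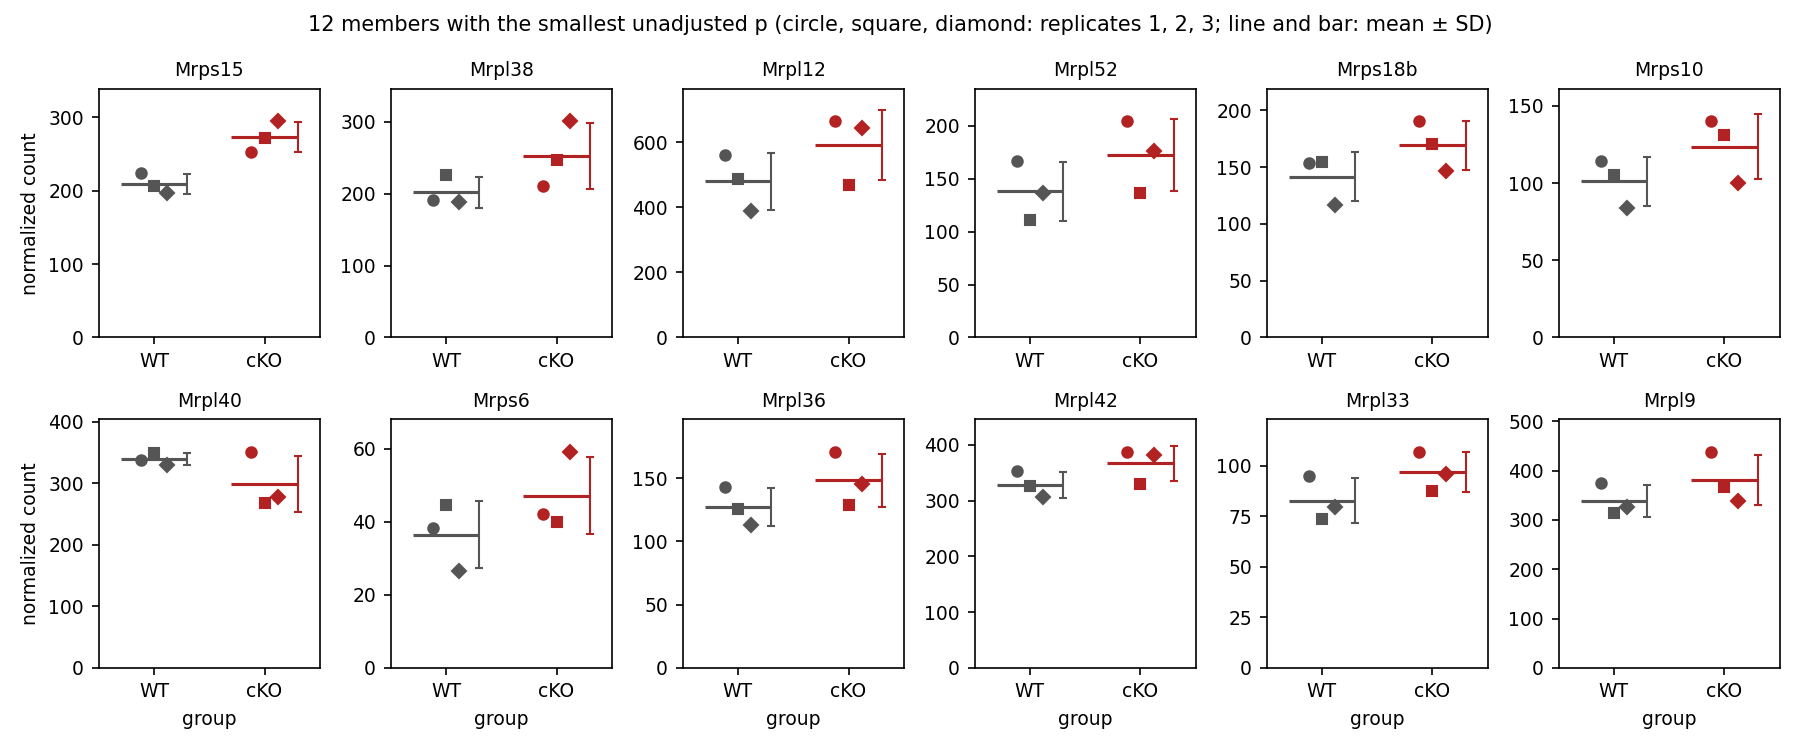
Normalized counts in each library for the 12 members with the smallest unadjusted p; circles, squares and diamonds are replicates 1, 2 and 3, and lines with bars are group means with SD (n = 3). Mrps15 is the one gene of the 12 in which all 3 cKO libraries (253 to 294) lie above all 3 WT libraries (196 to 224).

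The stalk is the arm of the large subunit that brings translation factors to the ribosome. Its repeated protein Mrpl12 measured 562, 489 and 389 in WT (480 ± 87.1) and 664, 469 and 643 in cKO (592 ± 107), a log2 difference of 0.30 (-0.13 to 0.74). Its partner Mrpl10, which holds the copies of Mrpl12, measured 407, 348 and 286 in WT (347 ± 60.6) and 388, 285 and 288 in cKO (320 ± 58.9), a difference of -0.12 (-0.55 to 0.31). Mrpl11, at the base of the stalk, measured 211, 235 and 186 in WT (211 ± 24.5) and 242, 207 and 212 in cKO (220 ± 18.8), a difference of 0.07 (-0.30 to 0.43). The stalk genes thus had estimates on both sides of 0, with overlapping libraries in each. Mrpl45, which anchors the exit of the protein tunnel to the inner membrane, measured 384, 360 and 342 in WT (362 ± 21.1) and 397, 307 and 341 in cKO (348 ± 45.2), a difference of -0.06 (-0.40 to 0.28).

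The tunnel through which the new chain leaves the large subunit is lined at its exit by Mrpl22, Mrpl23, Mrpl24 and Mrpl47, the counterparts of L22, L23, L24 and L29, described here for their place. Mrpl22, whose promoter is printed above, measured 110, 100 and 76.9 in WT (95.6 ± 16.9) and 132, 66.4 and 116 in cKO (105 ± 34.4), a log2 difference of 0.09 (-0.57 to 0.76). Mrpl24 measured 357, 311 and 327 in WT and 389, 311 and 376 in cKO, a difference of 0.11 (-0.23 to 0.44). Mrpl47 measured 122, 95.8 and 80.3 in WT (99.5 ± 21.3) and 107, 62.6 and 98.0 in cKO (89.3 ± 23.6), a difference of -0.17 (-0.79 to 0.45). For Mrpl22 and Mrpl47 the cKO replicate 2 library was the lowest of the 6, and for Mrpl24 it was level with WT replicate 2.

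The members with the lowest estimates came from both subunits. Mrps24, the counterpart of S3 at the entry of the messenger RNA channel, had the lowest, and is named for that after its values were seen. It measured 172, 125 and 112 in WT (136 ± 31.9) and 149, 81.6 and 123 in cKO (118 ± 34.0), a log2 difference of -0.23 (-0.84 to 0.39). Mrpl18, with the highest level of all members, measured 676, 599 and 490 in WT (588 ± 93.7) and 665, 397 and 490 in cKO (517 ± 136), a difference of -0.20 (-0.68 to 0.27). In both genes replicate 1 was the highest library of its group, and the difference between the group means was smaller than the SD of either group.

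The genes at the ends of the scale per kilobase had overlapping libraries too. Mrps21 measured 319, 278 and 234 in WT (277 ± 42.5) and 345, 256 and 294 in cKO (298 ± 44.5), a log2 difference of 0.11 (-0.30 to 0.51). Mrpl54 measured 325, 228 and 232 in WT (262 ± 54.9) and 350, 258 and 294 in cKO (301 ± 46.5), a difference of 0.21 (-0.23 to 0.65). In these 2 genes both replicate 1 libraries were the highest of the 6. At the lower end Mrps25 measured 153, 117 and 126 in WT (132 ± 18.4) and 169, 102 and 125 in cKO (132 ± 33.7), a difference of -0.02 (-0.54 to 0.50). Mrpl17, the counterpart of L17, measured 247, 197 and 157 in WT (200.3 ± 44.9) and 207, 197 and 214 in cKO (206 ± 8.57), a difference of 0.07 (-0.37 to 0.50).

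The bacterial protein S18 has 3 descendants in mammals, which sit at different places of the mitochondrial ribosome. Only Mrps18c, at the place of S18 itself, was counted above as having a bacterial counterpart. Mrps18a, of the large subunit, measured 392, 341 and 240 in WT (324 ± 77.4) and 376, 243 and 313 in cKO (310 ± 66.5), a log2 difference of -0.06 (-0.58 to 0.46). Mrps18b, of the small subunit, measured 154, 154 and 117 in WT (142 ± 21.4) and 190, 171 and 147 in cKO (169 ± 21.7), a difference of 0.26 (-0.18 to 0.70). Mrps18c measured 79.9, 101 and 75.2 in WT (85.4 ± 13.8) and 101, 96.8 and 75.6 in cKO (91.1 ± 13.6), a difference of 0.09 (-0.42 to 0.60). Per kilobase the order was Mrps18a at 359 ± 73.5, Mrps18b at 144 ± 22.7 and Mrps18c at 138 ± 19.8 (SD over 6 libraries). The first stands above the others by more than their spread, and the other 2 do not differ beyond it.

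The larger pattern among these genes ran along the replicate number, not the genotype. In 40 of the 76 members (52.6%) the replicate 1 libraries of both groups lay above all 4 other libraries, beside 16.2% of all genes tested. In 0 of the 76 did both lie below, beside 14.1%. The count was 25 of 49 in the large and 15 of 27 in the small subunit, and 39 of 83 (47.0%) for the cytosolic ribosomal protein genes. Replicate 1 minus the mean of replicates 2 and 3 had a log2 median of 0.29 over the members, with a range from -0.24 for Mrpl38 to 0.83 for Mrpl57. The labels name no batch, and that replicate 1 stands apart was known from the values, so these counts are a description with no test.

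Genes differed in how far they followed this pattern. Mrpl14, the counterpart of L14 at the face where the subunits meet, had the largest SD over the 6 libraries (0.48 on the log2 scale). It measured 116, 83.0 and 51.3 in WT and 99.2, 55.0 and 61.3 in the cKO libraries. Mrpl57, specific to mitochondria (SD 0.45), measured 144, 93.7 and 78.6 in WT and 148, 72.1 and 83.7 in cKO. Mrpl28, the counterpart of L28 (SD 0.44), measured 359, 251 and 183 in WT and 378, 194 and 235 in the cKO libraries. In all 3 genes both replicate 1 libraries were above the other 4, and their differences between the groups were -0.19, -0.08 and 0.02.

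The steadiest members were Mrps30 and Mrpl3, each with an SD of 0.06 to 0.07, and Mrpl19 with 0.09. The median SD was 0.24 over the members and 0.36 over all genes tested. Mrps30, a large subunit protein despite its name, measured 236, 240 and 265 in WT and 247, 241 and 257 in cKO. Mrpl3, the counterpart of L3 near the site of peptide bond formation, measured 453, 398 and 424 in WT and 421, 410 and 406 in cKO. Mrpl19, the counterpart of L19, measured 279, 265 and 241 in WT and 267, 266 and 288 in cKO. Their log2 differences were 0.01 (-0.31 to 0.33), -0.04 (-0.33 to 0.25) and 0.07 (-0.25 to 0.39). Across the 76 members the Spearman correlation of transcript length with the replicate 1 shift was -0.24, and across 14630 genes it was -0.10. These are correlations across genes of the same 6 libraries and are given without a p.

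**Figure D4:**
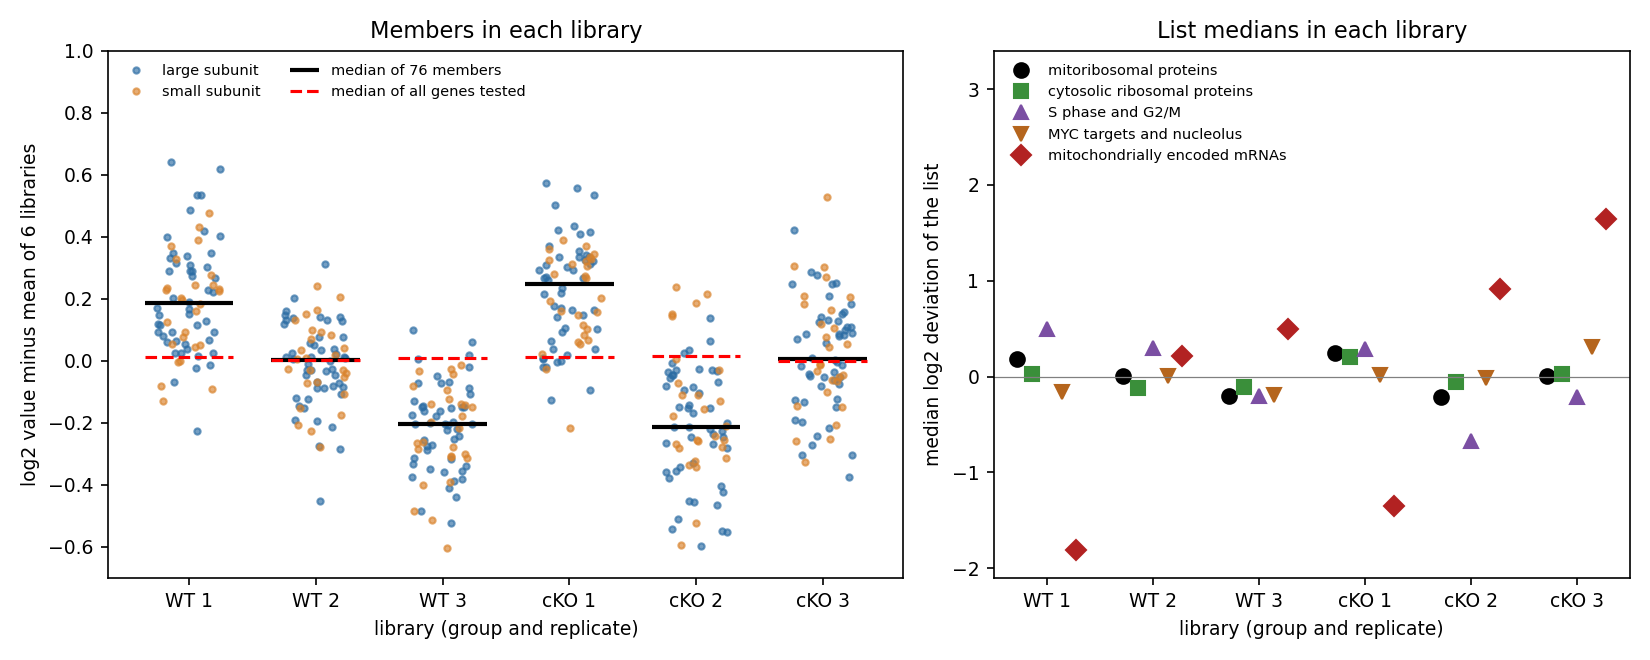
Left, log2 value of each of the 76 members minus its mean over the 6 libraries, with the median of the members (black line) and of all genes tested (red dashed line). Right, the same median for 5 gene lists. Member medians are 0.19 and 0.25 in the replicate 1 libraries and -0.21 to 0.01 in the others, while mitochondrially encoded mRNAs are lowest in replicate 1.

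Seen by library, the median deviation of the members from their own means came to 0.19, 0.00 and -0.20 in WT and 0.25, -0.21 and 0.01 in cKO, on the log2 scale. The lowest library was WT replicate 3 for 31 members and cKO replicate 2 for 30, and the highest was a replicate 1 library for 60. Of all reads the members took 0.359%, 0.298% and 0.256% in WT and 0.364%, 0.253% and 0.267% in cKO. Of reads outside the mitochondrial genome they took 0.369%, 0.324% and 0.284% in WT and 0.378%, 0.289% and 0.331% in cKO, again highest in replicate 1. Within replicate 1 the median log2 difference of the members between the groups was 0.05, and over replicates 2 and 3 it was -0.005. The sign of the difference was the same in replicate 1 and in replicates 2 and 3 for 45 of 76 members (59.2%), beside 60.4% of all genes tested.

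Several other measures moved with the replicate number, and their part in the pattern was not tested. Replicate 1 held the most reads, 10339054 in WT and 9657005 in cKO against 3019152 to 6528052 in the others. Reads of the mitochondrial genome made up 2.71%, 7.92% and 9.83% in WT and 3.66%, 12.3% and 19.1% in cKO, and reads of processed pseudogenes 0.234%, 0.400% and 0.389% in WT and 0.255%, 0.374% and 0.401% in cKO. A list of 20 genes of S phase and G2/M was also high in both replicate 1 libraries, and in WT replicate 2. It was low in WT replicate 3 and in cKO replicates 2 and 3. The members, by contrast, had medians of 0.00 in WT replicate 2 and 0.01 in cKO replicate 3. Median log2 deviations of the S phase and G2/M list were 0.49, 0.30 and -0.20 in WT and 0.29, -0.67 and -0.21 in cKO. For 11 of these 20 (55.0%, beside 16.2% of all genes) both replicate 1 libraries lay above the other 4, and in 0 below. All 20 had estimates below 0 for cKO minus WT, with a median of -0.39, overlapping libraries and 0 called by limma. The members' median was 0.01. A list of 20 MYC target and nucleolar genes had all 20 estimates above 0, with a median of 0.17 and 0 called. In 6 of these 20 every cKO library lay above every WT library (beside 6.28% of all genes), and in 0 below (beside 5.28%). Of the 83 cytosolic ribosomal protein genes 78 had estimates above 0, with a median of 0.13 and 0 called. In 14 of these 83 every cKO library lay higher (beside 6.28%) and in 1 lower (beside 5.28%). Of the germinal centre markers, Bcl6 was present in every library at 1289 to 2225 normalized counts. Over the list of 9 such markers, 2 estimates were above 0 and 7 below, with a median of -0.21 and 0 called by limma. In 1 of the 9 every cKO library lay above every WT library (beside 6.28% of all genes), and in 0 below (beside 5.28%). Whether the groups differ in cell composition was not tested. Markers of T cells, macrophages and monocytes were low by comparison but uneven. The 7 T cell genes summed to 120 to 204 in WT and 44.9 to 900 in cKO. For 8 macrophage and monocyte genes the sums were 68.3 to 271 in WT and 243 to 459 in cKO. Markers of other B-lineage cells were higher. Sums of 5 naive or memory B cell genes were 415, 1000 and 1064 in WT and 591, 3921 and 1060 in cKO. All 5 had estimates above 0, with a median of 0.90 and 0 called by limma. Sums of 5 plasma cell genes were 1689, 1393 and 2007 in WT and 1366, 2661 and 1599 in cKO, with 4 estimates above 0 and 1 below. Cd3d, Cd3g and Cd8a had no read in cKO replicate 3. The library with the highest of these sums, cKO replicate 2, is also among those lowest for the members, and whether the former bears on the latter was not tested.

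Reads were also counted for a processed pseudogene of Mrpl23, and whether any of them came from Mrpl23 itself was not tested. Mrpl23, which lies at the tunnel exit and is named for this copy, measured 220, 169 and 156 in WT and 217, 123 and 219 in cKO. Mrpl23-ps1 measured 4.04, 35.1 and 30.8 in WT and 2.17, 17.1 and 26.6 in cKO. The replicate 1 shift of Mrpl23 was 0.42 on the log2 scale alone and 0.22 for the sum of both rows. The handling of reads that match several places is not given, so the level of Mrpl23 is uncertain. The table held 3 other processed pseudogenes with member names, each at under 5 normalized counts in every library.

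Mitochondrial ribosome proteins without an Mrp name gave similar values, with 0 of 5 called by limma (beside 0% of all genes), 4 above 0 and 1 below, and a median log2 difference of 0.04. Dap3, a GTP-binding protein of the small subunit, measured 590, 464 and 433 in WT (496 ± 83.3) and 587, 406 and 539 in cKO (511 ± 93.6), a difference of 0.04. Ptcd3, of the small subunit, measured 288, 346 and 317 in WT and 328, 256 and 331 in cKO, a difference of -0.06. Aurkaip1 and Chchd1, also of the small subunit, had differences of 0.01 and 0.12, and Gadd45gip1 of the large subunit one of 0.25 (-0.17 to 0.67). The 5 genes thus fell inside the range of the 76 members.

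Factors that build the mitochondrial ribosome or modify its RNA were measured for 24 genes, with 0 called by limma, 12 above 0 and 12 below, and a median log2 difference of -0.01. Mtg1, a GTPase of large subunit assembly, measured 50.05, 39.4 and 41.9 in WT (43.8 ± 5.58) and 77.0, 55.0 and 63.3 in cKO (65.1 ± 11.1), a difference of 0.56 (-0.02 to 1.13). Mrm1, which methylates the large ribosomal RNA, measured 63.7, 51.1 and 69.2 in WT and 79.2, 83.5 and 77.6 in cKO, a difference of 0.39 (-0.11 to 0.89). In both genes every cKO library lay above every WT library, with limma adjusted p of 0.915 and 0.924. Trub2, a pseudouridine synthase, measured 180, 144 and 133 in WT and 177, 214 and 194 in cKO, a difference of 0.36 (-0.05 to 0.77). In this list 2 of 24 genes lay higher in every cKO library (beside 6.28% of all genes) and 2 of 24 lower (beside 5.28%).

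Of 16 genes listed for mitochondrial translation, not all of them translation factors, 0 were called by limma. Estimates were above 0 for 6 and below 0 for 10, with a median log2 difference of -0.07. Mief1, whose locus also encodes a microprotein that binds the assembling large subunit, measured 220, 178 and 155 in WT and 196, 125 and 118 in cKO, a difference of -0.35 (-0.90 to 0.19). The initiation factor Mtif3 measured 106, 91.6 and 66.6 in WT and 138, 94.9 and 94.0 in cKO, a difference of 0.30 (-0.28 to 0.89). The elongation factor Gfm1 measured 403, 401 and 341 in WT and 365, 321 and 337 in cKO, a difference of -0.16 (-0.48 to 0.16). Libraries of the groups overlapped in all 16.

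Regulators of mitochondrial transcription and biogenesis were tested for 13 genes, with 0 called by limma, 7 above 0 and 6 below. At an unadjusted p under 0.05 limma placed 3 of the 13 higher (beside 2.98% of all genes) and 0 lower (beside 2.17%). Esrra, a nuclear receptor that drives genes of mitochondrial energy metabolism, measured 87.0, 97.9 and 94.0 in WT (93.0 ± 5.57) and 137, 156 and 137 in cKO (143 ± 10.9), a log2 difference of 0.62 (0.21 to 1.02) with a limma adjusted p of 0.915. Pprc1, a coactivator of the PGC-1 family, measured 297, 270 and 290 in WT (286 ± 13.6) and 340, 393 and 441 in cKO (391 ± 50.6), a difference of 0.45 (0.11 to 0.78). Polrmt, the mitochondrial RNA polymerase, measured 210, 178 and 129 in WT (172 ± 40.9) and 216, 233 and 255 in cKO (235 ± 19.8), a difference of 0.47 (0.00 to 0.94). In these 3 of 13 genes every cKO library lay above every WT library (beside 6.28% of all genes), and in 1 of 13, Gabpa, every cKO library lay below (beside 5.28%). Gabpa, the DNA-binding subunit of an ETS factor that binds CCGGAAG, measured 631, 800 and 732 in WT (721 ± 84.9) and 581, 600 and 627 in cKO (603 ± 23.3), a difference of -0.25 (-0.56 to 0.05). Nrf1 (-0.08), Yy1 (-0.14) and Myc (0.41) had overlapping libraries; they are named for the motifs searched.

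The RNAs that these ribosomes contain and read had another order across libraries. The 13 mitochondrially encoded mRNAs had a median log2 difference of 0.81, all 13 were above 0, 0 were called by limma, and the libraries of the groups overlapped in all 13. Both mitochondrial ribosomal RNAs were above 0 as well, with mt-Rnr1 at 0.98 (-0.60 to 2.55) and mt-Rnr2 at 0.65 (-0.97 to 2.26). Replicate 1 of both groups was lowest in 12 of the 13 mRNAs, whereas 0 of the 76 members had both lowest. By library the median deviation of the 13 mRNAs came to -1.81, 0.21 and 0.50 in WT and -1.35, 0.91 and 1.65 in cKO. The labels name neither poly(A) selection nor removal of ribosomal RNA, so what share of mitochondrial RNA was captured in each library is unknown.

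Genes that start head to head with a member were compared as well. Of the 23 members with a head-to-head neighbour, 22 neighbours were in the table, and limma called 0 of them. Sars2, the mitochondrial seryl-tRNA synthetase beside Mrps12, was the 1 neighbour of 22 with every cKO library above every WT library (beside 6.28% of all genes), at 147 ± 28.0 in WT and 192 ± 39.0 in cKO, and was chosen after its values were seen. Mrps12 itself, a protein of the decoding centre, measured 105, 89.4 and 64.1 in WT (86.0 ± 20.5) and 101, 66.4 and 63.3 in cKO (77.1 ± 21.2), a log2 difference of -0.16 (-0.80 to 0.47). The 2 genes of this start region thus had estimates of opposite sign.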

How the data were processed

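RNA was sequenced from 6 libraries of sorted germinal centre B cells, with 3 per group and the group read from each title in the labels. The submitters' processing notes name the aligners TopHat2, HISAT and HISAT2, the tools HTSeq, SAMtools and DESeq2 with neither version nor order, and the genome mm10. For annotation release and strand setting the sources used here give nothing.

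The authors deposited 1 table of 19680 genes, in which each library's signal is a normalized count, a read count divided by a size factor. Beside it stand the authors' log2 fold change with its error, their test score (a Wald statistic), p-value and adjusted p-value, per the file headers. The deposited table leaves 8022 adjusted p-values empty. It has 10 rows with an identifier but no gene name, which were kept in the fit.

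Every value was a whole multiple of what 1 read is worth (100% of values within 0.01 read), so read counts were recovered: 10339054, 5160902 and 6528052 in WT and 9657005, 3019152 and 3082897 in cKO. A read is worth 0.506 to 2.04 normalized counts. The planned edgeR test for deposited counts did not apply, since the values are normalized.

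limma 3.58.1 in R 4.3.3 was run on log2(value + 1) with a trend of variance on mean and genotype as the only term. It tested the 14678 genes whose mean was 1 or more, and p-values were adjusted by Benjamini-Hochberg with a threshold of 0.05. Differences of low genes are understated on this scale. edgeR 4.0.16 and DESeq2 1.42.0 on recovered reads were alternatives. The limma fit was also run on simulated counts, whose outcome is not given here. Those counts were drawn gene by gene without a replicate 1 shift, so they cannot show how the fit behaves with that shift. Whether the libraries are separate mice is not in the labels, so the p-values reflect the spread between these libraries.

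Lengths and positions were read from GENCODE M21 (GRCm38), which held 19589 of the identifiers; per kilobase values use the principal transcript. The lists held 27 assembly factors (24 found), 16 genes of mitochondrial translation and 16 regulators (15 found, 13 tested). The text names the 12 members with the smallest p and the 4 highest and 4 lowest per kilobase. It names the 3 with the largest and the 3 with the smallest SD among those with a mean of at least 50. The stalk, anchor and S18 genes and subunits without an Mrp name are named too. From the assembly, translation and regulator lists the 3 with the smallest p are named. The rule asked for these 3 in every pathway list. It was not applied to the MYC target, S phase and mitochondrially encoded mRNA lists. In the MYC target list the 3 are Rrp12, Srm and Rrp9, with log2 differences of 0.50, 0.46 and 0.52. In each of them every cKO library lay above every WT library, and none was called by limma. Mrpl53 and Mrpl58 were not analysed here. The members and lists were chosen with earlier results of these data known.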

Additional observations from a re-analysis of the deposited data

How the results depend on the processing

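The number of members called was 0 under all 18 alternatives, in pseudocount, filter, scaling, test, a term for replicate 1 and left-out libraries, and the smallest adjusted p of any member over them was 0.477, for Mrps15. The median log2 difference of the members was 0.01 as reported and changed by less than 0.21, its SD between replicates, everywhere. It ran from -0.09 without cKO replicate 1 to 0.12 without cKO replicate 2 (61 of 76 above 0), and was -0.08 without WT replicate 3 (20 above 0) and 0.12 without WT replicate 1 (60 above 0), so its sign rests on single libraries. With TMM factors it was -0.004 and with library totals -0.07. Of the 29 members that the naming rule gives, 14 kept their sign in every setting; the members named for another reason are not in this count. DESeq2 called 20 genes in all, none of them a member.

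The groups share replicate numbers, and the protocol calls the mice paired without tying a number to a pair. Deviations from the group means correlated at 0.49, 0.05 and 0.20 between libraries of the same number, and at -0.40 to 0.17 between different numbers. WT replicate 2 with cKO replicate 3 gave 0.07, and WT replicate 3 with cKO replicate 2 gave 0.17. The numbers were therefore not taken to pair the libraries. Over the 76 members the same-number values were 0.70, 0.17 and 0.13, and the others ran from -0.53 to 0.42. With the replicate block 0 members and 1 gene in all were called, and the median stayed at 0.01. Replicates 2 and 3 alone, an alternative chosen after seeing the data, gave 0 members called and a median of -0.005. The depth of cKO replicates 2 and 3 (3019152 and 3082897 reads) is the lowest of the 6.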
